A study of Mus musculus with 8 samples.

Results

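The genes described are 10 genes listed as trophic factor genes of microglia, 10 of the 20308 genes counted in CD11b+ cells of the mouse brain. They were listed by name, with earlier results of these data known: Igf1, Pdgfa, Pdgfb, Vegfa, Vegfb, Hbegf, Osm, Bdnf, Bmp2k and Fgf1. RNA was sequenced from 4 mice that over-express CSF1 (CSF1 OE) and 4 control mice, 1 library per mouse. All were 14 or 15 days old and were F1 offspring of CD1 and C57Bl/6 parents. In the CSF1 OE mice a TRE/tTA transgene system makes a subset of GFAP+ cells express secreted CSF1, a ligand of the microglial receptor CSF1R. Whether the controls carry a part of that system is not given in the sources used here. The cells were taken from the right brain hemisphere after myelin had been removed, with magnetic beads against CD11b, an integrin chain that marks myeloid cells, microglia among them. The comparison addresses whether growth factor genes of microglia differ when the brain holds more CSF1.

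Growth factors are secreted or shed proteins that bind receptors on nearby cells and change their survival, division or differentiation. Microglia are a known source of several of them in the young brain, among them insulin-like growth factor 1, which acts on oligodendrocyte precursors and neurons, and brain-derived neurotrophic factor, which acts on synapses. Several of these genes are also expressed outside microglia: Pdgfb and Vegfb by endothelial cells, Vegfa and Fgf1 by astrocytes and other glia, Igf1 by other macrophages and by neurons, and Bdnf by neurons. Bmp2k differs from the others in kind, since it encodes BMP-2-inducible kinase, an intracellular kinase related to the Numb-associated kinase AAK1, and not a growth factor.

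The libraries held between 12908195 and 15475488 expected counts in control mice and between 12053280 and 14356538 in CSF1 OE mice. Levels are given as CPM, the counts per 1000000 counts of a library after TMM scaling. A gene was called changed at an adjusted p under 0.05 (Benjamini-Hochberg, edgeR's quasi-likelihood test) with a fold change under 0.7 or over 1.43. Of 13 cell type marker lists the microglial one had the highest sum in every mouse. Csf1r was at 9722 ± 2240 CPM in control mice and 10090 ± 1454 CPM in CSF1 OE mice (SD, n = 4 each). RNA of other cells was also present. The 12 endothelial markers summed to between 668 and 1112 CPM in control mice and between 322 and 785 CPM in CSF1 OE mice, led by Cldn5 and Pecam1, and the 10 markers of border macrophages to between 3003 and 4114 and between 2157 and 3282 CPM. Markers of choroid plexus and ependyma summed to between 3792 and 5131 CPM in control mice and between 1506 and 5938 CPM in CSF1 OE mice. Oligodendrocyte markers summed to between 2974 and 6221 and between 1625 and 5040 CPM. All 12 endothelial markers and 9 of 10 border macrophage markers had a lower mean in CSF1 OE mice, with none called. So did 5 of 5 tested choroid plexus and ependyma markers and 8 of 9 oligodendrocyte markers, also with none called. Of the 12 microglial markers 5 were lower and 7 higher. In these bulk samples, fewer cells of a type and less RNA per cell cannot be told apart. The means of Csf1 itself were 282 ± 98.8 (control) and 322 ± 107 CPM (CSF1 OE), which does not check the labels, because the transgene is expressed in GFAP+ cells.

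None of the 10 listed genes was called, against 59 of the 13407 genes tested (0.44%). Of all genes tested, 52 were called higher (0.388%) and 7 lower (0.0522%) in CSF1 OE mice. The count filter kept 9 of the 10, and Bdnf was below it. Of these 9, 6 had a lower and 3 a higher mean in CSF1 OE mice, and their median log2 fold change was -0.21, compared with -0.03 over all genes tested, of which 55.2% were below 0. Igf1 alone had an unadjusted p under 0.05, as did 16.5% of all genes tested, 6.44% with a lower level in CSF1 OE mice. The genotypes overlapped for all 9 genes, whereas 10.3% of all genes tested showed no overlap, 3.45% with the CSF1 OE mice below. DESeq2, which called 416 genes (3.1%), and a fit that adds the animal-number range as a term, which called 1274 (9.5%), also called 0 of the members.

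**Figure D1:**
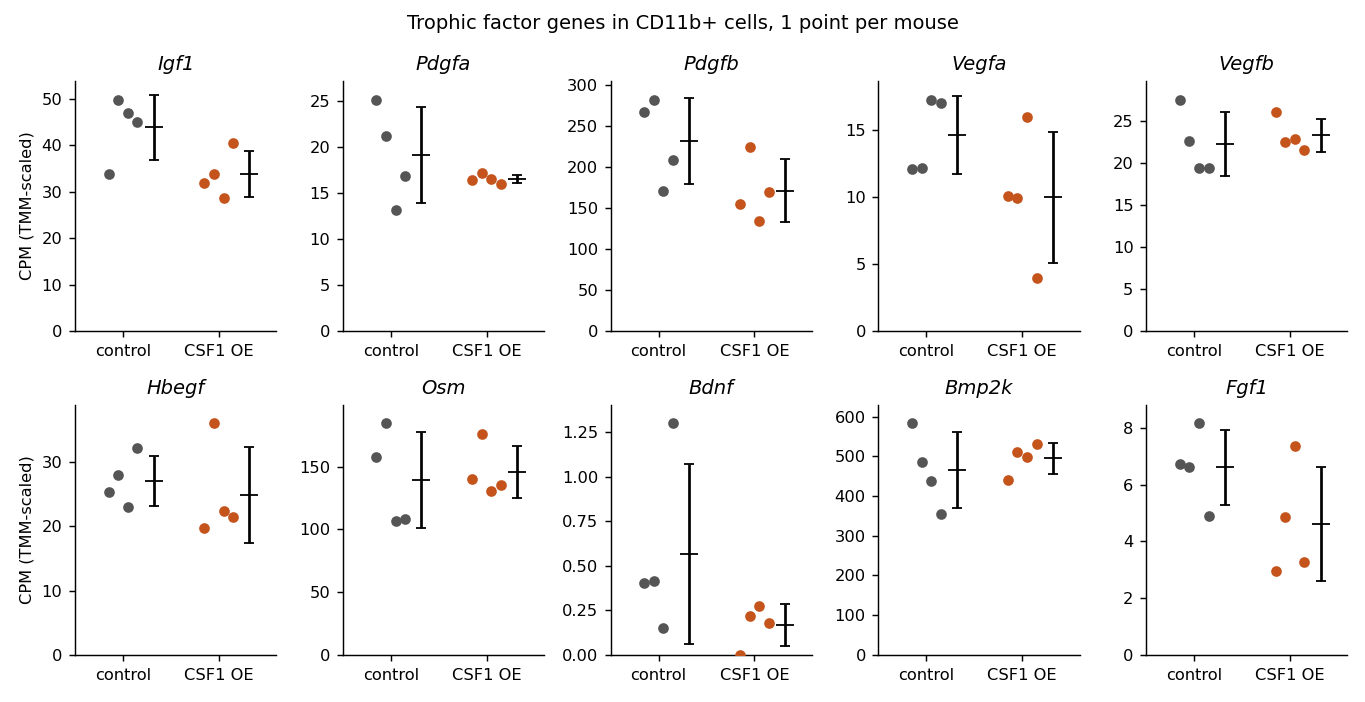
Level of each listed gene in every mouse, as CPM on a linear axis that starts at 0 and differs between panels. Each point is 1 mouse and the bars give the mean and SD of 4 mice. In every panel the points of the control and CSF1 OE mice overlap, and Bdnf has its highest value, far from the others, in 1 control mouse.

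Levels of different genes were compared only as CPM per kilobase of annotated exon. In control mice Osm (61.4 CPM per kilobase), Pdgfb (55.8) and Bmp2k (54.9) were highest, and their ranges over the mice overlapped. They were above 94.7% or more of all genes tested. Vegfb followed at 13.9 CPM per kilobase, apart from its neighbors on both sides. Pdgfa (6.12), Hbegf (5.61), Igf1 (4.44) and Vegfa (3.42) formed a middle group in which each gene overlapped with the next. Fgf1 (1.21) lay below Vegfa with no overlap, and Bdnf (0.0913) lay below Fgf1 with none. In CSF1 OE mice the order was the same except that Bmp2k (58.4 CPM per kilobase) stood above Pdgfb (41.1), with overlapping ranges, and Vegfa (2.34) and Fgf1 (0.844) overlapped. These levels depend on the annotation, because a gene with long alternative ends, such as Igf1 with 9904 bases of exon, appears lower per kilobase than its main transcript would.

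Igf1 (chromosome 10, 87858265 to 87937042, plus strand, GRCm38) encodes the ligand of the IGF1 receptor. In control mice it was at 33.9, 49.9, 47.0 and 45.0 CPM (mice 1827, 1872, 1874 and 1934). In CSF1 OE mice it was at 31.95, 33.87, 28.76 and 40.54 CPM (mice 1931, 1932, 1936 and 2019). The other 3 control mice lay above all CSF1 OE mice, and control mouse 1827 lay among them. Means were 43.9 ± 7.01 and 33.8 ± 4.97 CPM (SD, n = 4 each), a log2 fold change of -0.38 (SE 0.147, 95% interval -0.71 to -0.05). The adjusted p of 0.247 (edgeR) did not pass the threshold, and it ran from 0.103 to 0.480 over the alternatives. Within the range of animal numbers from 1931 to 1936, which holds 1 control and 3 CSF1 OE mice, the log2 difference was -0.51. Among the mice outside that range, where 2019 is the only CSF1 OE mouse, it was -0.08.

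Igf1 followed the markers of border macrophages, the macrophages of perivascular spaces, meninges and choroid plexus, from mouse to mouse. Per 1000 CPM of their 10 summed markers, Igf1 was at 11.3, 12.1, 11.8 and 12.6 CPM in control mice. The CSF1 OE mice had ratios of 10.4, 13.1, 13.3 and 12.4. The means of this ratio, 11.9 ± 0.576 and 12.3 ± 1.34, differed by less than the SD, a comparison chosen after the values were seen. Per 1000 CPM of the 12 microglial markers Igf1 spread more widely, from 0.712 to 1.67 in control mice and from 0.810 to 0.968 in CSF1 OE mice. The genes most like Igf1 in log2 CPM over the 8 libraries were Slc26a11, an anion transporter (Pearson r = 0.988), H2-Aa, an MHC class II chain (0.978), and Mrc1, the mannose receptor CD206 (0.970). Mrc1 is one of the border macrophage markers. These correlations are a description of libraries that also share differences in cell makeup, and the part of border macrophages in the Igf1 difference was not tested.

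The other genes of the insulin-like growth factor system included receptors, binding proteins and binding-protein proteases. Of 20 listed genes 16 were tested, 14 had a lower and 2 a higher mean in CSF1 OE mice, and none was called. Their median log2 fold change was -0.42, compared with -0.03 over all genes tested. Without control mouse 1934 the split was 11 lower and 5 higher with a median of -0.16. Leaving out mouse 2019 of the CSF1 OE group gave a median of -0.23, and the animal-number term gave -0.88. Igf1r, the receptor, was at 31.7 ± 9.91 CPM in control mice compared with 24.6 ± 5.23 CPM in CSF1 OE mice, with an adjusted p of 0.462 (edgeR). Igfbp2, a secreted protein that binds IGFs, had the lowest log2 fold change of the list at -0.80, from 92.6 to 119 CPM in control mice and from 34.96 to 88.26 CPM in CSF1 OE mice. The genotypes did not overlap for Igfbp2, but its adjusted p was 0.157 (edgeR); DESeq2 called it. Ide, a protease that degrades insulin and IGFs, had the highest value at 0.17. Most markers of endothelial cells, choroid plexus and ependyma, oligodendrocytes and border macrophages had lower means in the same libraries, as given above. The sum for choroid plexus and ependyma was lowest in mouse 2019, at 1506 CPM, and highest in mouse 1936, at 5938 CPM. The part of these cells in this list was not tested.

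PDGF-A and PDGF-B are chains of the platelet-derived growth factors, which act on oligodendrocyte precursors through PDGFRA and on pericytes through PDGFRB. Pdgfb (chromosome 15, 79995874 to 80014977, minus strand) was at 267, 282, 170 and 208 CPM in control mice. Among CSF1 OE mice it was at 155, 224, 135 and 170 CPM. In 3 of 4 CSF1 OE mice it lay below the lowest control mouse, and mouse 1932 lay within the control range. Of those 3, mouse 2019, at 170.3 CPM, was practically level with control mouse 1874, at 170.4 CPM. The means of 232 ± 52.1 and 171 ± 38.4 CPM gave a log2 fold change of -0.44 (SE 0.197, 95% interval -0.89 to 0.01, adjusted p = 0.306, edgeR). The adjusted p ran from 0.184 to 0.550 over the alternatives. Within the range of animal numbers, where 1934 is the only control mouse, the log2 difference was -0.32. Among the other mice, where 2019 is the only CSF1 OE mouse, it was -0.46.

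Pdgfb did not follow the endothelial markers across the mice. Per 1000 CPM of those 12 markers it ranged from 166 to 400.1 CPM in control mice and from 172 to 529 in CSF1 OE mice. The highest ratio was in CSF1 OE mouse 2019, which had the lowest endothelial sum, 322 CPM, with 170 CPM of Pdgfb. The genes most like Pdgfb over the 8 libraries were Depdc7 (Pearson r = 0.980), Mettl17 (0.971) and Socs6 (0.970), given as a description.

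Pdgfa (chromosome 5, 138976014 to 138997370, minus strand) was at 25.1, 21.2, 13.2 and 16.9 CPM in control mice and at 16.43, 17.12, 16.56 and 16.02 CPM in CSF1 OE mice. All 4 CSF1 OE mice lay inside the control range and close to one another. The log2 fold change was -0.21 (SE 0.186, 95% interval -0.63 to 0.21, adjusted p = 0.607, edgeR). It was -0.04 without control mouse 1827 and -0.34 without control mouse 1874 (adjusted p = 0.904 and 0.422, edgeR). The ratio of Pdgfb to Pdgfa per kilobase was 7.98, 10, 9.71 and 9.26 in control mice and between 6.10 and 9.82 in CSF1 OE mice. Part of the Pdgfa exons, 813 bases, overlap the opposite-strand gene 6330403L08Rik, and reads there cannot be assigned by strand with this library kit.

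Vegfa and Vegfb encode vascular endothelial growth factors. VEGF-A drives the growth of blood vessels and its gene responds to low oxygen, whereas VEGF-B binds VEGFR1 and is linked to vessel survival and metabolism. Vegfa (chromosome 17, 46016993 to 46032369, minus strand) was at 12.1, 12.2, 17.3 and 17.0 CPM in control mice. In CSF1 OE mice it was at 10.1, 9.92, 16.02 and 3.98 CPM. Mouse 2019 stood lowest, at 45 counts, and mouse 1936 lay among the controls. The means of 14.7 ± 2.91 and 10.01 ± 4.91 CPM gave a log2 fold change of -0.54 (SE 0.350, 95% interval -1.33 to 0.25, adjusted p = 0.468, edgeR). Without mouse 2019 the value was -0.28, and without mouse 1936 it was -0.86. Within the range of animal numbers, where 1934 is the only control mouse, the log2 difference was -0.54. Among the other mice it was -1.78, and there 2019 is the only CSF1 OE mouse. A fit with a term for the range gave -1.06 with an adjusted p of 0.0672 (edgeR).

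Vegfa varied with the markers of several other cell types. The 10 astrocyte markers summed to 394, 490, 659 and 729 CPM in control mice and to 443, 453, 772 and 330.1 CPM in CSF1 OE mice, so that mouse 2019 was lowest and mouse 1936 highest, the same mice that were lowest and highest of their genotype in Vegfa. Per 1000 CPM of these markers Vegfa was between 23.4 and 30.7 CPM in control mice and between 12.1 and 22.8 CPM in CSF1 OE mice. These ratios did not overlap. The sums of endothelial, mural and oligodendrocyte markers were also lowest in mouse 2019 and, among CSF1 OE mice, highest in mouse 1936. Per 1000 CPM of endothelial markers Vegfa was at 18.1, 16.8, 16.9 and 15.3 CPM in control mice and at 19.9, 15.6, 20.4 and 12.4 CPM in CSF1 OE mice. These overlapped, with means of 16.8 ± 1.14 and 17.1 ± 3.79, so the ratio depended on which markers were used. All these ratios were chosen after the values were seen. Among the genes most like Vegfa over the 8 libraries were Kcnh1, a potassium channel (Pearson r = 0.987), and Slc38a3, a glutamine transporter (0.986). The part of RNA from other cells in the Vegfa difference was not tested.

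Vegfb (chromosome 19, 6982473 to 6987651, minus strand) was the steadiest of the genes tested among the 10. It was at 27.6, 22.6, 19.4 and 19.5 CPM in control mice and at 26.1, 22.6, 22.9 and 21.6 CPM in CSF1 OE mice. The highest mouse was 1.42 times the lowest, compared with 4.35 times for Vegfa. Its log2 fold change was 0.07 (SE 0.135, 95% interval -0.24 to 0.37, adjusted p = 0.825, edgeR), an interval that lies within the fold limits. The ratio of Vegfb to Vegfa per kilobase was between 2.99 and 6.08 in control mice and between 3.82 and 14.5 in CSF1 OE mice.

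The upstream sequences of this paralog pair are shown because the pair holds the widest and the narrowest range among the tested members. Each is the 250 bases before a RefSeq transcript start (GRCm38.p6), 5′ to 3′ on the gene's strand, with CpG pairs in capitals. The Vegfa window is chr17:46032378-46032627 on the minus strand and the Vegfb window chr19:6987652-6987901 on the minus strand.
Vegfa: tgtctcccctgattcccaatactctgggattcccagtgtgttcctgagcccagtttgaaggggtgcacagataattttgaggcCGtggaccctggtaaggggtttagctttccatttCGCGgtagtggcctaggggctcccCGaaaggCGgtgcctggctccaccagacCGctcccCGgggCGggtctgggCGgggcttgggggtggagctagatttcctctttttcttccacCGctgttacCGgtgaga
Vegfb: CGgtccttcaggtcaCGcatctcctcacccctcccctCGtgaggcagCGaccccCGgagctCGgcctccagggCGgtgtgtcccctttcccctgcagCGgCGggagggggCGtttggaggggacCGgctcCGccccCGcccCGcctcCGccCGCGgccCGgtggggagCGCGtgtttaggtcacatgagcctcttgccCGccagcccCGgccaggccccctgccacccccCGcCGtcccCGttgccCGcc
The Vegfa window has 59.2% G+C and 11 CpG pairs, and the Vegfb window 76.4% and 26, where the mean of 32851 such windows is 53.2% G+C. Both strands were searched for ACGTG and for TGANTCA, the AP-1 motif, which 16.6% and 6.75% of all windows hold. ACGTG is the A form of the hypoxia response element core, which is A or G followed by CGTG. The G form, GCGTG, was not counted over all windows, and it does occur in the printed Vegfb window. Neither searched motif occurs in either window, which says only that these letters are absent from these 250 bases. A second Vegfa window (chr17:46025164-46025413, minus strand), not printed because 218 of its bases are annotated Vegfa exon, holds 1 ACGTG, at position -211 from its transcript start. Such a match is a description of the sequence.

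Of the relatives and receptors of PDGF and VEGF, 12 of 13 were tested, 11 had a lower and 1 a higher mean in CSF1 OE mice, and none was called, with a median log2 fold change of -0.34. Without control mouse 1934 the split was 7 lower and 5 higher (median -0.22), and without CSF1 OE mouse 2019 it was 8 and 4 (-0.30). The median was -0.56 without CSF1 OE mouse 1932 and -0.77 with the animal-number term. Vegfc, the lymphatic growth factor, had the lowest value at -0.995, from 6.65 to 10.4 CPM in control mice and from 2.79 to 5.73 CPM in CSF1 OE mice. The genotypes did not overlap for Vegfc (adjusted p = 0.134, edgeR), and DESeq2 called it. Pdgfra, the receptor on oligodendrocyte precursors, had the highest value at 0.33 and spread from 12.1 to 52.5 CPM among CSF1 OE mice. The VEGF receptor genes Flt1, at 112 ± 36.6 and 70.6 ± 25.3 CPM, and Kdr, at 191 ± 67.4 and 126 ± 53.5 CPM, are endothelial genes and stood lower beside the endothelial markers, with adjusted p of 0.315 and 0.421 (edgeR). They were named after their values were seen. Of 17 oxygen-sensing and hypoxia genes, 10 had a lower and 7 a higher mean, with a median of -0.06 and none called. In this list Ankrd37 was lowest at -1.08 and Car9 highest at 0.55.

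**Figure D2:**
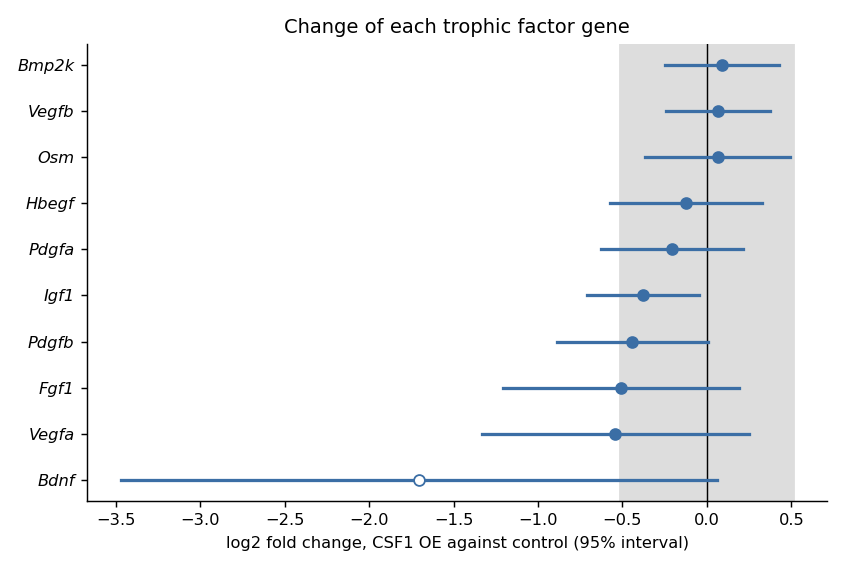
Log2 fold change of each listed gene, CSF1 OE minus control, with its 95% interval, beside the shaded fold limits and a line at no change. The intervals of Vegfb, Osm and Bmp2k lie within the fold limits, that of Igf1 runs from -0.71 to -0.05, and that of Bdnf, from a fit without the count filter, is the widest.

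Hbegf encodes heparin-binding EGF-like growth factor, which is made as a membrane protein and shed by ADAM proteases to act on EGF receptors. Hbegf (chromosome 18, 36504927 to 36515805, minus strand) was at 25.3, 27.9, 23.1 and 32.1 CPM in control mice. The CSF1 OE mice had 19.7, 36.0, 22.3 and 21.5 CPM. In 3 of the CSF1 OE mice the level was under every control, while mouse 1932 was the highest of all 8. The log2 fold change was -0.12 (SE 0.200, 95% interval -0.57 to 0.33, adjusted p = 0.780, edgeR). It was -0.35 without mouse 1932 (adjusted p = 0.259, edgeR), and -0.02 without either mouse 1931 or control mouse 1934. Leaving out CSF1 OE mouse 1936 or 2019 gave -0.07 and -0.06, and leaving out control mouse 1874 gave -0.19.

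Among other EGF family genes, receptors and sheddases, 13 of 21 were tested, 7 had a higher and 6 a lower mean, and none was called. Rhbdf2, which carries the sheddase ADAM17 to the cell surface, had the highest log2 fold change at 0.63, with 26.3 to 36.2 CPM in control mice and 37.9 to 65.2 CPM in CSF1 OE mice. The genotypes did not overlap for Rhbdf2, which DESeq2 called and edgeR did not (adjusted p = 0.140). Erbb3, a neuregulin receptor, had the lowest value at -0.66, also with no overlap (adjusted p = 0.178, edgeR). Adam10 was at 426 ± 54.8 and 523 ± 30.7 CPM and Adam17 at 280.2 ± 37.1 and 298 ± 42.2 CPM, with adjusted p of 0.231 and 0.767 (edgeR), both named after their values were seen.

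Osm encodes oncostatin M, a cytokine of the interleukin-6 family made by myeloid cells. Osm (chromosome 11, 4236420 to 4241026, plus strand) was at 158, 185, 107 and 108 CPM in control mice. The CSF1 OE mice had 140.3, 176, 130.3 and 136 CPM, all inside the control range. The log2 fold change was 0.06 (SE 0.190, 95% interval -0.37 to 0.49, adjusted p = 0.885, edgeR), and the interval lies within the fold limits. Of 17 other genes of the family and its signaling, 13 were tested, 9 had a lower and 4 a higher mean, and none was called. Il6 had the highest value at 0.95, at 1.47 ± 0.360 and 2.87 ± 1.09 CPM (adjusted p = 0.226, edgeR). Lifr, the receptor chain for leukemia inhibitory factor, had the lowest at -0.42, and Osmr, the oncostatin M receptor, was at 12.19 ± 4.403 and 9.41 ± 4.03 CPM.

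Hbegf and Osm are genes that immune and stress signals can induce quickly. The immediate early genes are given beside them as a description. Their 20 genes summed to between 13600 and 22260 CPM in control mice and between 13360 and 19000 CPM in CSF1 OE mice. Control mouse 1872 and CSF1 OE mouse 1932, the highest of their genotype in this sum, were also the highest of their genotype in Osm, and mouse 1932 was highest in Hbegf. Among control mice Hbegf did not follow this sum. Its highest level, 32.1 CPM, was in mouse 1934, which had the lowest control sum of immediate early genes, 13600 CPM. Next came mouse 1872, at 27.9 CPM, which had the highest control sum. Of the 20, 13 had a lower and 7 a higher mean, none was called and 0 had an unadjusted p under 0.05. Ier2 had the highest log2 fold change at 0.38 and Nr4a1 the lowest at -0.55. Whether quick induction had a part in the values of Hbegf and Osm was not tested.

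Fgf1 encodes acidic fibroblast growth factor, which leaves cells without a signal peptide. Fgf1 (chromosome 18, 38838673 to 38929472, minus strand) had 100, 96, 108 and 83 counts in control mice and 36, 66, 108 and 37 counts in CSF1 OE mice. As CPM these were 6.72, 6.64, 8.17 and 4.91, and 2.96, 4.85, 7.36 and 3.28. Mouse 1936 lay among the controls and the other 3 CSF1 OE mice below them. The log2 fold change was -0.51 (SE 0.309, 95% interval -1.21 to 0.19, adjusted p = 0.439, edgeR), and it was -0.83 without mouse 1936. Within the range of animal numbers, where 1934 is the only control mouse, the log2 difference was -0.05. Among the other mice it was -1.12, and there 2019 is the only CSF1 OE mouse. Per 1000 CPM of astrocyte markers, which were also highest in mouse 1936, Fgf1 was between 6.74 and 17.1 CPM in control mice and between 6.67 and 10.7 CPM in CSF1 OE mice.

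Only 9 of the 19 other FGF genes and receptors were tested, of which 5 had a lower and 4 a higher mean and none was called. Fgfr1 had the lowest log2 fold change at -0.58, at 25.4 ± 5.46 and 17.0 ± 4.03 CPM (adjusted p = 0.223, edgeR). S100a13, a protein that takes part in the release of FGF1, had the highest at 0.14.

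Bdnf (chromosome 2, 109674700 to 109727007, plus strand) was near the limit of detection. It had 6, 6, 2 and 22 counts in control mice and 0, 3, 4 and 2 counts in CSF1 OE mice. A floor of 3 counts corresponds to between 0.177 and 0.266 CPM, and 3 of the 4 CSF1 OE libraries were at or under it. Control mouse 1874, with 2 counts, was also under it. Control mouse 1934 held 22 of the counts. It also had the highest sum of the 10 neuronal markers, 378 CPM, compared with 97.3 to 163 CPM in the other control mice. Among CSF1 OE mice these sums were 92.3, 236, 129 and 48.0 CPM (mice 1931, 1932, 1936 and 2019). Mouse 1932 lay above those other control mice in this sum but had 3 Bdnf counts. The fit without the count filter, which called 44 of 16835 genes (0.261%), gave a log2 fold change of -1.71 (95% interval -3.47 to 0.06, adjusted p = 0.376, edgeR) and, without mouse 1934, -0.89. With the animal-number term it gave -2.35 (adjusted p = 0.0679, edgeR). The fitted size depends on a few counts. Part of its exons, 896 bases, overlap the opposite-strand gene Gm45346. The part of RNA from neurons in the Bdnf counts was not tested.

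Among the other neurotrophins, GDNF family genes and receptors 9 of 18 were tested, 6 had a lower and 3 a higher mean, and none was called. Furin, a protease that processes pro-neurotrophins, had the highest log2 fold change at 0.25, at 120.3 ± 13.8 and 143 ± 15.6 CPM (adjusted p = 0.305, edgeR). Ret, the GDNF family co-receptor, had the lowest at -0.69.

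Bmp2k (chromosome 5, 96997689 to 97091867, plus strand) was at 583, 485, 438 and 356 CPM in control mice and at 440, 512, 497 and 530.3 CPM in CSF1 OE mice. All 4 CSF1 OE mice lay inside the control range. The log2 fold change was 0.09 (SE 0.149, 95% interval -0.25 to 0.42, adjusted p = 0.789, edgeR), within the fold limits. Of its exons 1185 bases overlap Paqr3 on the opposite strand, and Paqr3 itself was at 1.52 ± 0.232 and 1.98 ± 0.256 CPM. A further list held Numb-associated kinases, the AP2 adaptor that they phosphorylate, and related genes such as Numb and Numbl. It had 5 genes with a higher and 7 with a lower mean, none called and a median log2 fold change of -0.06. Ap2m1 was highest at 0.16 and Numbl lowest at -0.47. In the list of BMP ligands, receptors and response genes 17 of 18 had a lower mean and none was called, with a median of -0.21. The median was -0.14 without CSF1 OE mouse 2019, -0.36 without mouse 1936 and -0.50 with the animal-number term. The endothelial markers also had lower means, 12 of 12 with a median log2 fold change of -0.70. So did most markers of choroid plexus and ependyma, oligodendrocytes and border macrophages. The part of these cells in this list was not tested. Bmp2 was lowest at -0.88, from 30.3 to 46.5 CPM in control and from 11.9 to 39.4 CPM in CSF1 OE mice (adjusted p = 0.262, edgeR), and Id2, a BMP response gene, highest at 0.21.

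**Figure D3:**
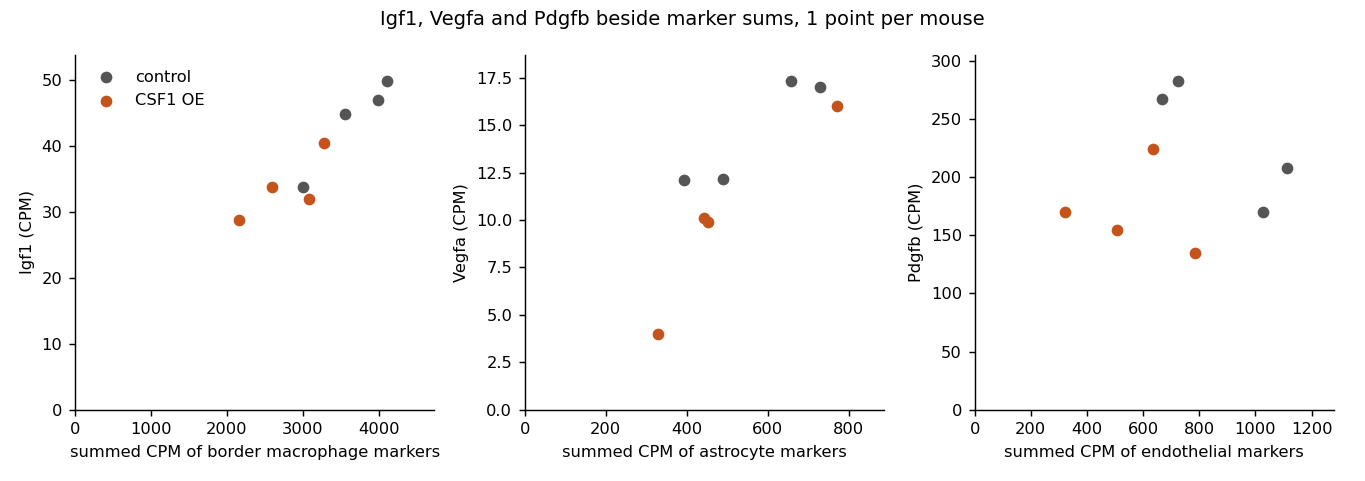
Igf1, Vegfa and Pdgfb in CPM against the summed CPM of border macrophage, astrocyte and endothelial markers, 1 point per mouse and both axes linear from 0. Igf1 is higher in mice with a higher border macrophage sum, at a ratio of 10.4 to 13.3 per 1000 CPM, Vegfa is lowest in the mouse with the lowest astrocyte sum, which was also lowest in endothelial markers, and Pdgfb shows no such order with the endothelial sum.

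Of 23 other secreted factors, 14 had a higher and 9 a lower mean, with none called and a median log2 fold change of 0.04. Tnf, the inflammatory cytokine, had the highest value at 1.32, from 81.6 to 148 CPM in control and from 132 to 364 CPM in CSF1 OE mice (adjusted p = 0.0902, edgeR). Il10, an anti-inflammatory cytokine, had the lowest at -1.14, at 6.41 ± 2.80 and 2.90 ± 1.54 CPM (adjusted p = 0.255, edgeR). Tnf was called by DESeq2, by the fit with the range term and by edgeR without CSF1 OE mouse 1932.

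The disease-associated microglia genes, a program in which Igf1 is often counted, were the only list with calls by edgeR, 3 of 14 tested. Gpnmb rose by 2.49 on the log2 scale (adjusted p = 0.0492), Itgax, which encodes CD11c, by 1.70 (0.0431) and Axl, a receptor tyrosine kinase, by 2.20 (0.0016), all by edgeR. For these 3 genes each of the 4 CSF1 OE mice lay above all controls. In the same mice Igf1 had the lower mean given above. With 1 mouse left out, Axl was called whichever mouse it was. Leaving out any of 6 mice cost Gpnmb and Itgax their calls, which held in the absence of either control mouse 1827 or mouse 2019 of the CSF1 OE group. With upper-quartile factors Axl alone was called, and with the robust prior Axl and Itgax. Of the 14, 12 had a higher and 2 a lower mean, with a median log2 fold change of 0.46, Ch25h being lowest at -0.18. Clec7a was not analysed here.

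**Figure D4:**
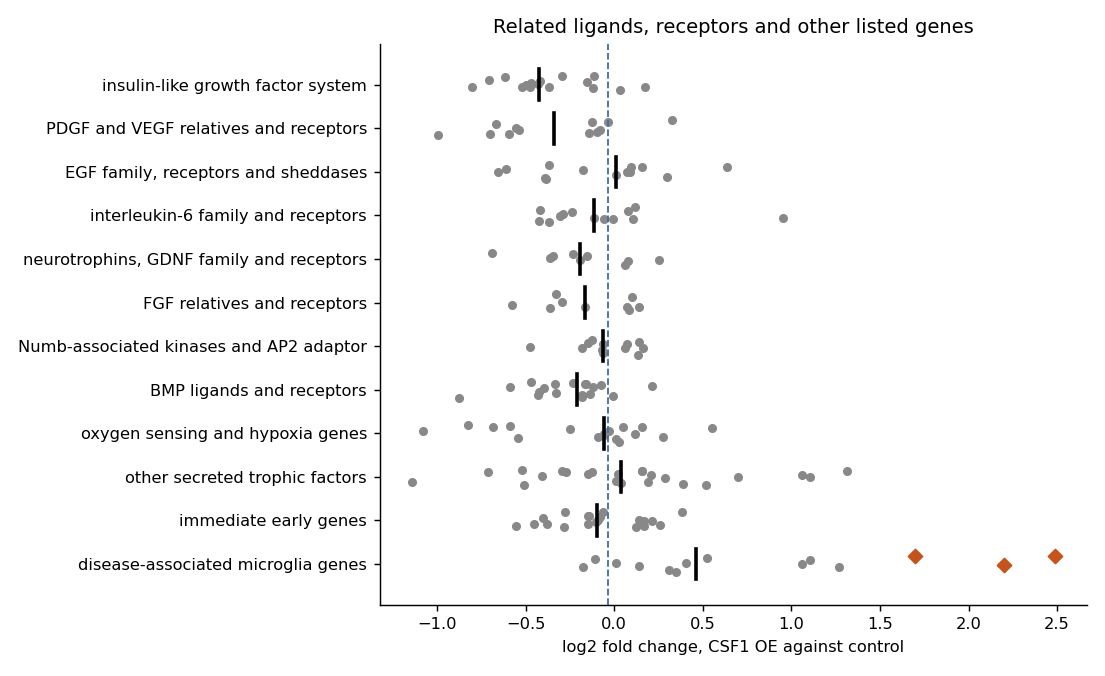
Log2 fold changes, CSF1 OE minus control, of the tested genes in each list, with 1 point per gene and a bar at the list's median. Medians run from -0.42 for the insulin-like growth factor system to 0.46 for the disease-associated microglia genes, the only list with called genes.

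**Figure D5:**
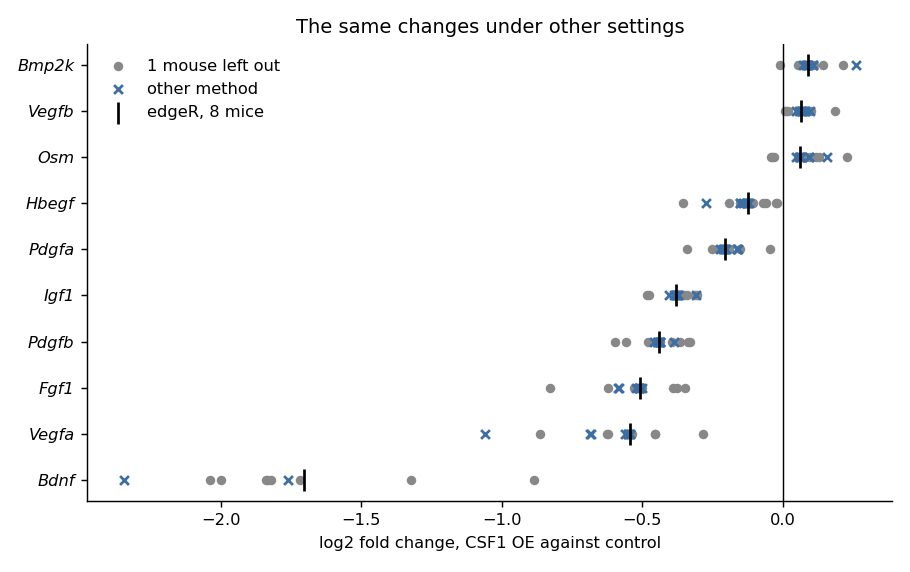
Log2 fold change of each listed gene in the reported fit and under every alternative, with each mouse left out among them. Vegfa runs from -1.06 to -0.28 and Bdnf from -2.35 to -0.89, whereas Igf1 stays between -0.48 and -0.30.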

How the data were processed

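CD11b+ cells of 8 mice were sequenced, and libraries were grouped by the genotype in their labels. Per the labels the genome was mm10. The authors aligned read pairs with Bowtie (1.0.0) and made the deposited expected counts per gene with RSEM (1.2.7). Annotation and strand setting are not given in the sources used here. The deposited normalized values, a signal on the count scale, are the authors' expected counts divided by 1 size factor per mouse. The study's own test, EBSeq, was not run.

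Expected counts were rounded to whole numbers and tested over all genes in R 4.3.3 with edgeR 4.0.16 (TMM, filterByExpr, glmQLFit, glmQLFTest, two-sided), with Benjamini-Hochberg adjustment over the 13407 genes tested. Intervals are at 95%, from the quasi-likelihood fit. Log2 CPM used a prior count of 2, the common biological coefficient of variation was 0.228, and floors cover counting error only. Exon lengths and coordinates came from GENCODE M21 (GRCm38, the build of mm10), and upstream sequences, which matched 6 of the 10 members, from RefSeq. Each mouse is a separate animal, and p-values set the genotype difference against the spread between these mice.

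The members and gene lists were chosen with earlier results of these data known. Named genes are the members, the largest rise and largest fall and every called gene of each list, the 3 genes most like Igf1, Pdgfb and Vegfa (mean of at least 1 CPM), and the first 2 microglial and endothelial markers by level. Some genes that this rule names are not reported here. Genes outside this rule are marked or belong to the pathway described, and were chosen after their values were seen. Alternatives were DESeq2 1.42.0, upper-quartile factors, no count filter, a minimum of 10 counts in each library, a robust prior, no fold threshold, limma 3.58.1 on log2 of the authors' normalized signal (pseudocount 1 or 0.5), a term for animal numbers 1931 to 1936, and each mouse left out. The range holds 1 control and 3 CSF1 OE mice, so it is partly confounded with genotype, and no sequencing batch is labelled. The fits were tested on simulated data.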

Additional observations from a re-analysis of the deposited data

Results flagged for a closer look

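Hbegf in CSF1 OE mouse 1932, at 36.0 CPM, stood apart from the other 3 CSF1 OE mice, and its gap to the nearest of them was 0.842 of the range of the group. This was 1 of 20 groups examined (10 genes in each genotype), and chance flags about 1 in 20.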

How the results depend on the processing

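No alternative called a member. Of 154 alternative values of the members' log2 fold changes, 150 kept their direction. The other 4, all close to 0, turned negative: Osm was -0.04 without control mouse 1874, -0.03 without control mouse 1934 and -0.0405 without CSF1 OE mouse 1932, and Bmp2k was -0.0099 without control mouse 1934. With each mouse left out Osm ran from -0.0405 to 0.229 and Bmp2k from -0.0099 to 0.216.

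The count of all genes called, 59, became 416 with DESeq2, 19 with upper-quartile factors, 105 with limma at either pseudocount and 1274 with the term for animal numbers, and ran from 3 to 164 with each mouse left out. The cause was not tested. In the lists, DESeq2 and the term for animal numbers called 1 and 6 genes of the insulin-like growth factor system, 1 and 3 of the PDGF and VEGF relatives, 1 and 2 of the EGF family, 1 and 3 of the hypoxia genes, 4 and 6 of the other secreted factors, and 6 and 5 of the disease-associated microglia genes, of which upper-quartile factors called 1 and the robust prior 2. The term alone called 2 genes of the neurotrophin list, Plat and Ret, and 1 of the FGF list, Fgfr1. The term alone also called Numbl, in the list that holds the Numb-associated kinases, and 2 genes of the BMP list, Bmp4 and Id3. No paired analysis was possible because the mice of the 2 genotypes share no animal or replicate number. At 4 mice a group, the intervals of Igf1, Pdgfa, Pdgfb, Vegfa, Hbegf, Fgf1 and Bdnf reach beyond the fold limits, so a change of that size was not excluded for them.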
